A study of Homo sapiens with 21 samples.

Results

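Intermediate filament and lamin transcripts were followed through the differentiation of human induced pluripotent stem cells (iPSCs) into cardiomyocytes (CMs). The set comprised 10 genes chosen by name: the simple keratins *KRT8*, *KRT18* and *KRT19*, the muscle and mesenchymal filament genes *DES*, *VIM*, *SYNM* and *NES*, and the lamins *LMNA*, *LMNB1* and *LMNB2*. Every row that carried one of these names in 6 deposited differential expression tables was taken. This gave 24 transcripts in 59 rows, out of 21537 transcripts of 11851 genes in 36579 rows. All cells derived from PGP1, an established human iPSC line. The 15 wild-type libraries were 3 each of iPSCs, mesoderm (M), cardiac mesoderm (CMes), cardiac progenitors (CPs) and CMs, and each stage was compared with the next. The 6 mutant libraries were 3 of UBE2B-/-1 CMs and 3 of UBE2B-/-2 CMs, each compared with the same 3 wild-type CM libraries. UBE2B is the ubiquitin-conjugating enzyme that works with RNF20 and RNF40 to place a single ubiquitin on histone H2B. Each mutant line is 1 clone from its own CRISPR-Cas9 experiment, so clone and genotype cannot be told apart within a line. CMs were selected with lactate once wells beat, the mutant RNA came from beating wells, and mutant cells were plated at a higher number than wild type.

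Intermediate filaments are rope-like polymers that give cells and nuclei their mechanical strength. Keratins always pair a type II chain (KRT8) with a type I chain (KRT18 or KRT19) and are typical of simple epithelia. Vimentin is the filament of mesenchymal cells, nestin that of many progenitor cells, and desmin that of muscle, where it ties Z-discs to each other, to the cell membrane and to the nucleus. Synemin is a large partner that co-assembles with desmin and vimentin. Lamins line the inner nuclear membrane. The B-type lamins (*LMNB1* and *LMNB2*) are made by most cells from the earliest stages, whereas the A-type lamins A and C, both from *LMNA*, accumulate as cells differentiate. Variants of *DES* and *LMNA* are known causes of cardiomyopathy.

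The tables count single transcripts, and several members share most of their sequence with another transcript of the same gene. For *SYNM* and *KRT8* the sequences that tell them apart are therefore shown first, read from the GRCh38 genome at the exon ends of GENCODE 44. All 24 transcripts were found in that annotation by identifier, 22 with the same version number, and it holds 108 transcripts of the 10 genes. *LMNA* lies on chromosome 1, plus strand. LMNA-205 (156114711 to 156140081) is the lamin A form. LMNA-206 (156082578 to 156137865) and LMNA-202 (156126189 to 156137865) have the 3' end of lamin C. LMNA-202 also starts further downstream than the others. *SYNM* lies on chromosome 15, plus strand. SYNM-202 (99105080 to 99135593, 4695 coding bases) and SYNM-203 (99098217 to 99135593, 2901 coding bases) part after base 99131813, in the last exon of SYNM-202, where SYNM-203 splices out 936 bases. They also have different first exons. Capitals mark the bases after the parting.
SYNM-202: gcagaagtggtggagGTAAGTGCGGGAGGT
SYNM-203: gcagaagtggtggagATGGATGTGAGTAAC
*KRT8* lies on chromosome 12, minus strand, beside *KRT18* on the plus strand. KRT8-201 (52897194 to 52906618), KRT8-215 (52897297 to 52926469) and KRT8-216 (52897187 to 52949842) differ in their first exon. Here capitals mark the transcript's bases just before base 52905027. In KRT8-215 and KRT8-216 these are the end of the first exon, whereas in KRT8-201 the second exon begins further upstream and runs on through this base.
KRT8-201: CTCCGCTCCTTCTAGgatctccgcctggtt
KRT8-215: GGACCTGCAGGAAGGgatctccgcctggtt
KRT8-216: CCTCACTCTGTCCAGgatctccgcctggtt
The first exon of KRT8-216 shares 135 bases with KRT18-201 and KRT18-206 (52949118 to 52952906 for KRT18-201) on the opposite strand. Whether the quantification used strand is not stated. If it did not, reads from this stretch cannot be told apart between the 2 genes. KRT8-211 (52899794 to 52902204) is annotated as a retained intron and shares 638 of its 770 bases with KRT8-201. *KRT8* and *KRT18* also have many processed pseudogenes, which makes their counts less certain.

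**Figure D1:**
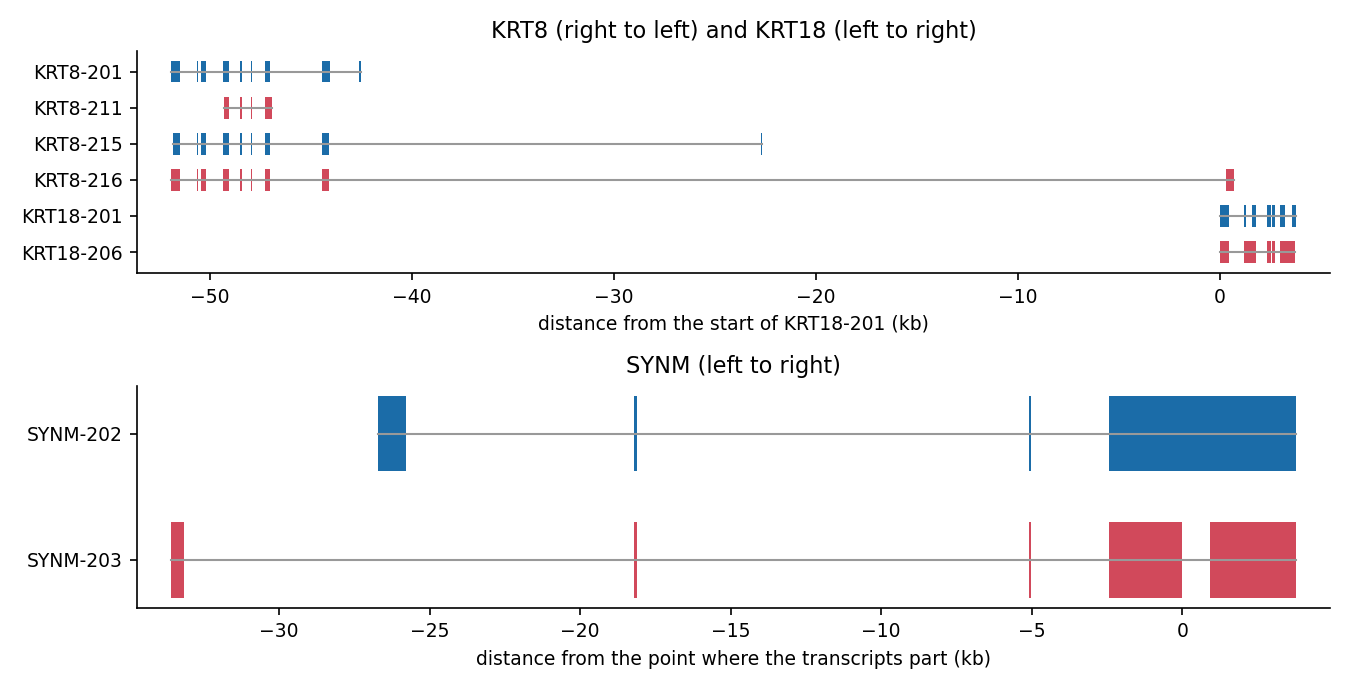
Exons (boxes) and introns (lines) of the *KRT8*, *KRT18* and *SYNM* transcripts discussed, with distance in kb on the x axis from the start of KRT18-201 or from the base where the *SYNM* transcripts part. KRT8-216 reaches into the first exon of *KRT18* by 135 bases, and SYNM-203 lacks 936 bases that SYNM-202 keeps.

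The other members lie at 6 further sites of GRCh38. These are KRT19-201 (chromosome 17, 41523617 to 41528308, minus strand), DES-201 (chromosome 2, 219418377 to 219426734, plus), VIM-201 (chromosome 10, 17229278 to 17237593, plus), NES-201 (chromosome 1, 156668763 to 156677407, minus), LMNB1-201 (chromosome 5, 126777136 to 126837020, plus) and LMNB2-201 (chromosome 19, 2428166 to 2456959, minus). Of the 24 transcripts, 16 are annotated as protein coding, 6 as retained introns, 1 as a target of nonsense-mediated decay and 1 as lacking a defined coding region. For each gene the most abundant listed transcript speaks below, which is the one numbered 201 except for SYNM-202 and LMNA-205.

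The unit is the estimated count, the number of reads that Kallisto assigns to a transcript, normalized between libraries by the authors. Values for single libraries are not in these tables, so each value is a group mean of 3 libraries recovered from the table (on the log scale, returned to counts), and its error is the residual standard deviation between replicates that the table gives (log2 scale, pooled over the groups compared, n = 3 per group). Library depth is therefore unknown. Changes are log2 differences with their standard error (SE) and the q-value of the Wald test in Sleuth. Calls needed a q-value no higher than 0.05 and an effect of 0.585 or more in either direction on the natural-log scale, which is a 1.79-fold change. This limit is log2(1.5) set on a natural-log effect, so it is stricter than a 1.5-fold change. Tables list only transcripts that met this q-value, so an unlisted transcript either missed that limit or was too low to test. Means of the 10 genes were brought to the scale of the CP to CM table by the constant that separates neighboring tables. Counts of all other genes stand on the scale of their own table, so the same libraries can carry different values for them in different comparisons. Levels are compared between the 10 genes only as estimated counts per kb of annotated length. In the lists of other genes, the most abundant is the one with the most estimated counts, not corrected for length.

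The keratin pair *KRT8* and *KRT18*, together with *KRT19*, rose from M to CMes. KRT8-201 had means of 3141 and 22865 estimated counts, with a residual SD of 0.42. Its log2 change was 2.86 (SE 0.34, q = 1.44e-14). KRT18-201 rose from 4549 to 16052, by 1.82 (SE 0.29, q = 2.28e-08), and KRT19-201 from 1211 to 8864, a change of 2.87 (SE 0.19, q = 1.31e-47). These differences are several times the spread between replicates. All 9 listed keratin transcripts were called higher at this step, 6 of *KRT8*, 2 of *KRT18* and 1 of *KRT19*. The largest change on the log2 scale, 5.17 (SE 1.64, q = 0.0211), was that of KRT8-208, a retained intron whose mean was listed at 0 in M and 15.6 in CMes.

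From CMes to CP the rise continued in *KRT18* and *KRT19*. KRT18-201 reached 34925 estimated counts, a log2 change of 1.12 (SE 0.15, q = 5.03e-12), and KRT19-201 reached 23163, a change of 1.39 (SE 0.17, q = 1.26e-14). KRT8-201 reached 38094 estimated counts, and its log2 change of 0.74 (SE 0.16, q = 1.36e-04) stayed under the fold limit but over a 1.5-fold change. KRT8-215, which shares 1629 of its 1687 bases with KRT8-201, rose by 1.19 (SE 0.26, q = 1.00e-04). At the CP stage KRT18-201 stood at 24717 estimated counts per kb, VIM-201 at 22963, KRT8-201 at 20241 and KRT19-201 at 16664, the highest 4 levels per kb among the 20 member transcripts with a value there. The first 3 differ by less than 1 residual SD of VIM-201 (0.34). KRT18-201 and KRT8-201 had smaller residual SDs (0.18 and 0.09), and the gap between these 2 is wider than either. The order has no test.

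From CP to CM only *KRT19* among the speaking keratins was called. KRT19-201 fell from 23163 to 5144, and its log2 change was -2.17 (SE 0.78, q = 0.0311). Its replicates were spread far wider here, with a residual SD of 0.95, than at the 2 transitions before (0.23 and 0.21). The retained introns KRT19-203 and KRT19-206 fell with it, by -2.87 (SE 0.79, q = 0.00285) and -4.99 (SE 1.20, q = 3.80e-04). KRT8-201 and KRT18-201 were not listed at this step. KRT8-216 fell by -1.42 (SE 0.51, q = 0.0324) and KRT18-206 by -0.99 (SE 0.35, q = 0.0276), from CP levels of only 320 and 82.8 estimated counts per kb. KRT8-211, also unlisted here, had means of 6176 in CPs and 4348 in CMs, a log2 change of -0.51 with no test, obtained from the neighboring tables.

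Vimentin rose at 2 successive transitions and fell at the last. VIM-201 had a mean of 6403 estimated counts in iPSCs and 4189 at M. That log2 change of -0.61 (SE 0.14, q = 3.82e-04) was under the fold limit but over a 1.5-fold change. It then rose to 16718 in CMes (2.00, SE 0.29, q = 1.01e-09) and to 42894 in CPs (1.36, SE 0.28, q = 2.29e-05). From CP to CM it fell to 16130, a change of -1.41 (SE 0.25, q = 5.91e-07). The residual SD lay between 0.17 and 0.36 throughout. VIM-203, a transcript annotated for nonsense-mediated decay, moved the same way where it was listed, by 3.06 (SE 0.86) from M to CMes and by -1.52 (SE 0.43) from CP to CM, at no more than 120 estimated counts.

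NES-201 was called at 3 transitions and alternated in direction. It fell from 8011 estimated counts in iPSCs to 2646 at M (-1.60, SE 0.24, q = 1.11e-08) and rose to 9037 in CMes (1.77, SE 0.18, q = 3.58e-20). The CP mean was 6690, with a change of -0.43 (SE 0.12, q = 0.00270) under the fold limit. In CMs it rose to 19137 (1.52, SE 0.24, q = 6.42e-09), the highest of the 5 stages. *NES* and *VIM* were the only members listed between iPSC and M. Per kb, VIM-201 stood above NES-201 at every stage, by 22963 against 1202 in CPs and by 8635 against 3437 in CMs.

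**Figure D2:**
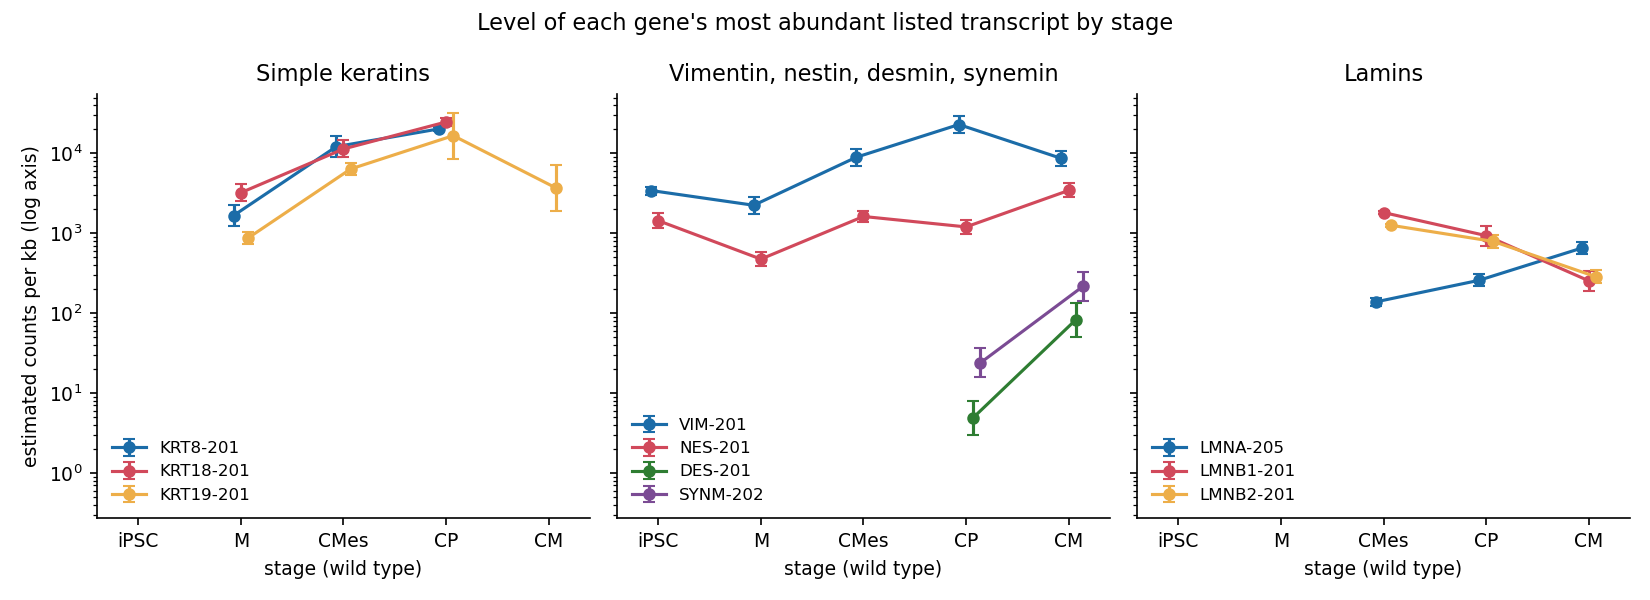
Group means of the most abundant listed transcript of each gene at the wild-type stages, in estimated counts per kb on a log axis, with 1 residual SD between 3 replicates (the larger one where 2 tables give the stage). Stages with no point were not listed for that gene in either neighboring table; KRT19-201 and VIM-201 are highest in CPs and NES-201 in CMs, KRT8-201 and KRT18-201 have no CM value, and LMNA-205 crosses the B-type lamins between CP and CM.

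The muscle filament genes *DES* and *SYNM* were called at the last transition. DES-201 rose from 11.1 to 186, and its log2 change was 4.01 (SE 0.63, q = 4.39e-09, residual SD 0.71). SYNM-202 rose from 176 to 1596, a change of 3.18 (SE 0.49, q = 2.96e-09), and SYNM-203 from 29.0 to 1210, a change of 5.36 (SE 1.25, q = 2.33e-04). For SYNM-203, 97.1% of the variance behind that SE was technical, meaning uncertainty in how reads were assigned between transcripts. In CMs DES-201 stood at 82.9 estimated counts per kb, below SYNM-202 at 217 and SYNM-203 at 205 and far below VIM-201 at 8635. Neither gene was listed at an earlier transition.

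The lamins exchanged places. LMNB1-201 fell from 5255 estimated counts in CMes to 2702 in CPs (-0.96, SE 0.10, q = 5.91e-19) and to 735 in CMs (-1.88, SE 0.34, q = 5.22e-07). Its residual SD was 0.07 at the first of these steps and 0.41 at the next. LMNB2-201 had a mean of 5846 in CMes and 3664 in CPs, with a change of -0.67 (SE 0.10, q = 1.31e-09) under the fold limit but over a 1.5-fold change, and fell to 1323 in CMs (-1.47, SE 0.23, q = 3.46e-09). LMNA-205 rose from 442 in CMes to 819 in CPs (0.89, SE 0.15, q = 1.65e-07) and to 2071 in CMs (1.34, SE 0.21, q = 4.71e-09). Per kb, LMNB1-201 was 13.1 times as high as LMNA-205 in CMes and 3.63 times in CPs, whereas in CMs LMNA-205 was 2.56 times as high as LMNB1-201 and 2.28 times as high as LMNB2-201. This ratio between genes has no test. LMNA-202 was listed from CP to CM, at 48.5 and 624 estimated counts (3.67, SE 1.20, q = 0.0159), with a residual SD of 1.47 and 81.0% of the variance technical. LMNB1-208, which shares all of its 1801 bases with LMNB1-201, fell at both steps, by -0.92 (SE 0.18) and -2.06 (SE 0.40). Per kb it stood at 1927 in CMes and 243 in CMs, close to LMNB1-201 at 1819 and 254. The ratios above compare single transcripts. They leave out LMNB1-208, and LMNA-202 at 371 per kb in CMs, so ratios of the whole genes would differ. No lamin was listed at the first 2 transitions.

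Because *LMNB1* and *LMNB2* fell together from CP to CM, the 250 bases before their starts are shown, from the RefSeq promoter table of the same build. That table held 10 windows for 7 of the 10 members. Capitals mark GC boxes, the letters GGGCGG on either strand.
LMNB1, chr5:126776886-126777135, plus strand: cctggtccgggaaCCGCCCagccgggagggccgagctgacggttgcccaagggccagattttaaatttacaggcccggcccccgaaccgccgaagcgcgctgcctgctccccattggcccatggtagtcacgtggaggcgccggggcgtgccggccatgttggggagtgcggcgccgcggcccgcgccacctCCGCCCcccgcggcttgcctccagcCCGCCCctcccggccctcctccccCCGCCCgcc
LMNB2, chr19:2456960-2457209, minus strand: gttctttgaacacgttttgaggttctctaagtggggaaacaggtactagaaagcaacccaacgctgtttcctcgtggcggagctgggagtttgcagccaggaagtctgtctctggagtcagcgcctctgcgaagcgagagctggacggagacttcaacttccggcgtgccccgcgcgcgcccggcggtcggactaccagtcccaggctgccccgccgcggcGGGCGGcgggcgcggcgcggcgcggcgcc
The table holds a second *LMNB1* window, before another start 513 bases upstream, with 0 GC boxes and 3 E boxes. The LMNB1 window shown holds 4 GC boxes and the LMNB2 window 1. Windows of members that rose from CP to CM hold them too, 4 for *SYNM* and 2 for *NES*. The *LMNA* windows hold 1, 1 and 2, and none lies at the start of LMNA-205 or LMNA-202. The first and second are nearest to LMNA-206, which was not listed at that step. The third lies 7995 bases from the start of LMNA-205. The *VIM* window, nearest to the start of VIM-204, holds 1, and the *KRT8* window, at the start of KRT8-215, holds 0. Of 35116 promoter windows of this length, 42.6% hold at least 1. The E box, CANNTG, occurs once in the LMNB1 window shown, not in that of LMNB2, and in 61.8% of all windows. AP-1 (TGANTCA, in 6.57% of windows), MEF2 (2.80%) and CArG box (1.16%) motifs were not found in any of the 10 member windows. These are matches of letters only.

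**Figure D3:**
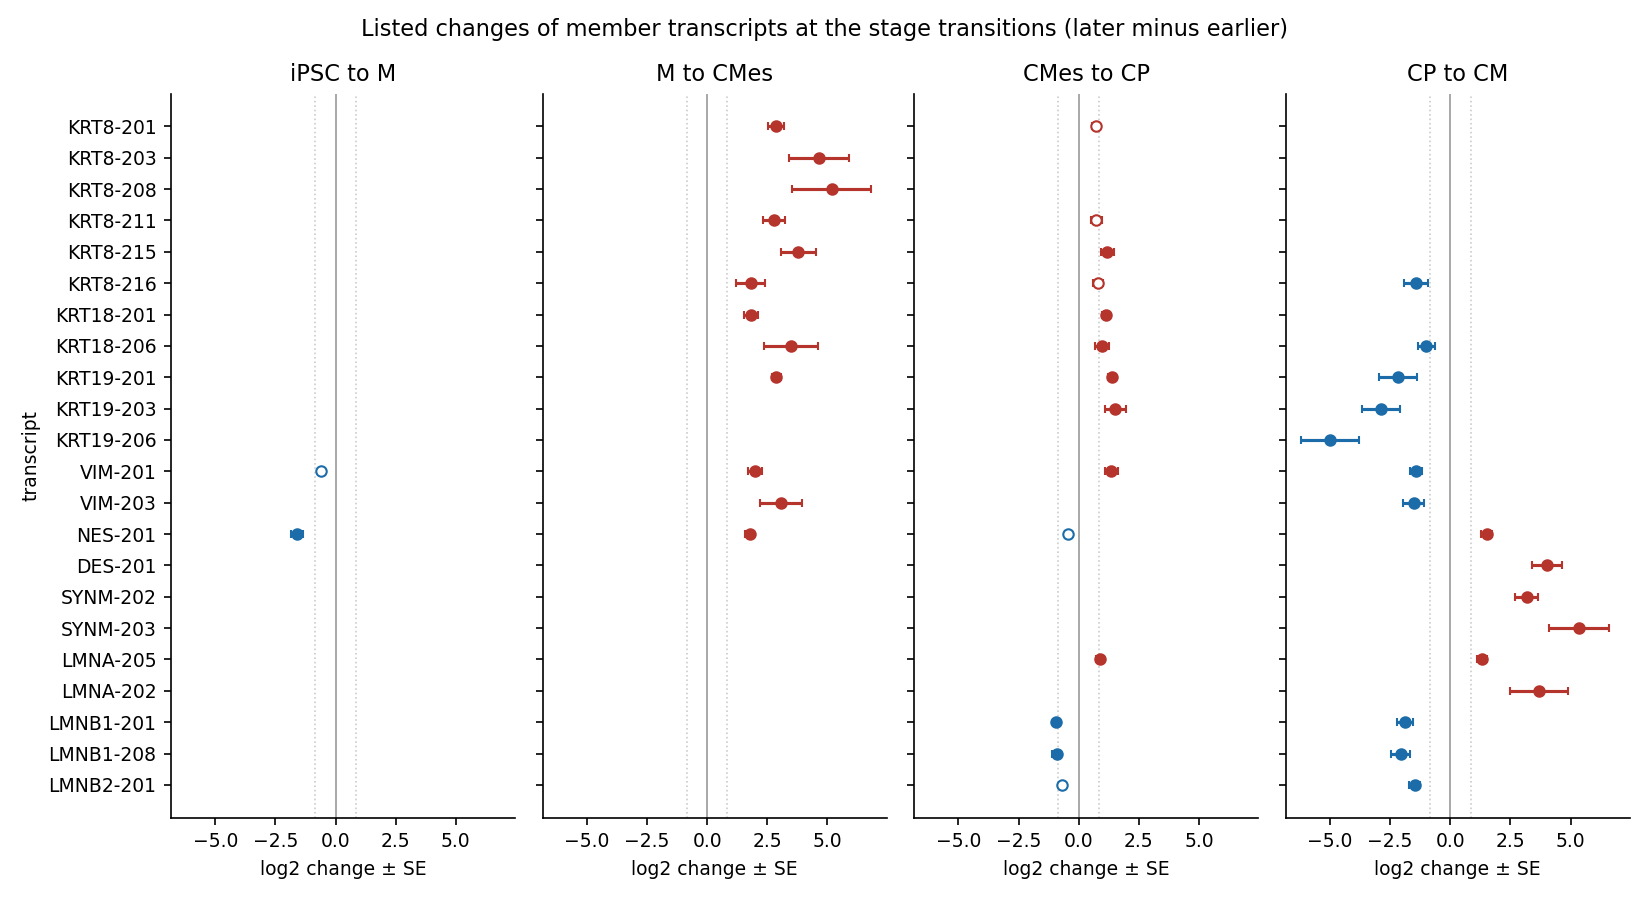
Log2 change (x axis, later minus earlier stage) with its SE for each listed member transcript (y axis) at the 4 transitions. Red is higher and blue lower at the later stage, open symbols passed the q-value but not the fold limit, and dotted lines mark that limit; all 12 transcripts are higher from M to CMes, and 10 of 16 are lower from CP to CM.

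Counted over transcripts, the calls moved from one direction to both. From iPSC to M, 1 of 2 listed member transcripts was called, and it was lower. Of all 68446 transcripts tested, 1.62% were called lower and 1.24% higher. From M to CMes, 12 were called higher and 0 lower, of 12 listed, against 3.81% and 2.65% of 70285 tested. From CMes to CP, 7 were called higher (*KRT18*, *KRT19*, *KRT8*, *LMNA* and *VIM*) and 2 lower (*LMNB1*), of 14 listed, against 3.8% and 2.63% of 71328. From CP to CM, all 16 listed were called, 6 higher (*DES*, *LMNA*, *NES* and *SYNM*) and 10 lower, against 8.25% and 6.99% of 69937. Among protein-coding transcripts alone the split was 6 higher and 5 lower. How many member transcripts were tested is not known. As shares of the 108 annotated, the calls were 11.1% higher from M to CMes, 6.48% higher and 1.85% lower from CMes to CP, and 5.56% higher and 9.26% lower from CP to CM. The last pair lies near the shares over all transcripts, but those are of transcripts tested, whereas the 108 may include untested ones. The member shares may therefore be too low for a like comparison. The median log2 change of the listed members was 2.87 from M to CMes, against 0.57 over all listed transcripts, and -1.41 from CP to CM, against 0.63.

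The p-values rest on the normal distribution that Sleuth assumes, and this matters for every count above. With a t distribution on 4 degrees of freedom, adjusted over all transcripts tested, 0 member transcripts were called at any transition, and the smallest adjusted value among members at each was 0.470, 0.139, 0.100 and 0.0914. Unadjusted, the t distribution gave a p under 0.05 for 1 of 1, 12 of 12, 9 of 9 and 16 of 16 called members. After the adjustment, 0, 0, 1 and 561 of all transcripts were called with the t distribution. Adjacent transitions share the libraries of a stage, so neighboring changes are not independent.

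Markers of other cell types moved with several of these changes, and their part in them was not tested. In these bulk samples, fewer cells of a type and less RNA per cell cannot be told apart. Each sum below covers only the transcripts listed at that step, so sums for the same stage cannot be compared between steps. The pluripotency gene *LIN28A*, for example, was listed from CP to CM, where it was the most abundant, but not from CMes to CP. Of 15 epithelial and endodermal genes, 7 were called higher and 3 lower from M to CMes, the step at which the keratins rose most, and their summed level over listed transcripts went from 31413 to 24714 estimated counts, with *CDH1* the most abundant. From CMes to CP, 7 were called higher and 1 lower, when the sum went from 16669 to 56789 estimated counts, with *CLDN6* the most abundant. From CP to CM, 8 were lower and 0 higher, and the sum went from 32054 to 2728, with *TTR* the most abundant and *CDH1*, *CLDN4*, *CLDN6*, *CLDN7*, *ESRP1*, *AFP* and *APOB* unlisted. KRT19-201 was highest at the same CP stage, and KRT8-201 and KRT18-201 have no CM value to set beside it. Of 11 fibroblast and mesenchymal genes, 1 was higher and 4 were lower from iPSC to M (12302 to 4847, *COL1A1* the most abundant), beside the fall of *NES*. Of the same genes, 7 were higher and 0 lower from M to CMes (2524 to 8625, *FBLN1* the most abundant), 7 were higher and 1 lower from CMes to CP (10146 to 105608 estimated counts, *COL1A1* the most abundant), and 2 were higher and 8 lower from CP to CM (66025 to 13943, *COL3A1* the most abundant), beside the rise and fall of *VIM*. Of 10 epicardial and mesothelial genes, 3 rose from M to CMes (9.49 to 187) and 5 from CMes to CP (196 to 2791). From CP to CM, 1 was higher and 3 were lower. *ALDH1A2*, *UPK3B*, *MSLN* and *ITLN1* were in no table. Of 8 genes of cycling cells, 3 were lower from CMes to CP (32231 to 21587) and 7 from CP to CM (19961 to 4902), none was higher, and *TOP2A* was the most abundant, beside the fall of the B-type lamins. Of 12 cardiomyocyte genes, 2 were lower from iPSC to M, 4 were higher from M to CMes (6.30 to 1042) and 8 from CMes to CP (2861 to 21599), and all 12 rose from CP to CM (20732 to 792396 estimated counts, *MYH6* the most abundant). Of 6 smooth muscle genes, 1 was higher and 2 were lower from iPSC to M, 2 were higher from M to CMes (1355 to 4988), 3 from CMes to CP (496 to 6198) and 6 from CP to CM (10649 to 35954), with 0 lower at the last 3 steps. Of 7 pluripotency genes, 2 were lower from iPSC to M (79819 to 26704), 1 was higher and 2 were lower from M to CMes (37795 to 20171), 6 were lower from CMes to CP (45140 to 10488), when the B-type lamins also went down, and 6 from CP to CM (49339 to 726). Beside the rise of *NES* in CMs, 2 of 7 neural genes were higher from CP to CM (1224 to 15786), *NCAM1* by 3.43 (SE 0.32) and *TUBB3* by 1.65 (SE 0.54). From M to CMes, when *NES* also rose, 1 of them (*NCAM1*) was higher (78.4 to 1565), and *TUBB3* and *SOX10* were lower from CMes to CP. *SOX1*, *PAX6* and *ELAVL4* were in no table. Of 7 endothelial genes, *KDR* and *TEK* were lower from CP to CM (8056 to 859) and *ESAM* was higher from CMes to CP. *TEK* was also lower from iPSC to M (968 to 337), beside the fall of *NES*. *PECAM1*, *CDH5*, *EMCN* and *TIE1* were in no table.

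In the UBE2B-/- CMs, the transcripts that changed were mostly not the ones that speak for their genes. *UBE2B* itself was listed once in the mutant tables. ENST00000499038.2 was lower in UBE2B-/-1 by a log2 change of -1.91 (SE 0.53, q = 0.0113), and no transcript of it was listed for UBE2B-/-2. The labels therefore have no check in the RNA level for that line, where an inactivating mutation need not lower it. For UBE2B-/-1, 4 member transcripts were called higher and 3 lower, against 2.18% higher and 1.72% lower among 65457 tested. At a q-value limit of 0.01, 1 was higher and 3 were lower. For UBE2B-/-2, 4 were higher and 4 lower, against 2.46% and 1.53%. As shares of the 108 annotated, these are 3.70% and 2.78% for the first line and 3.70% each way for the second. Both lines share the wild-type libraries, so their values stand side by side and are not independent. *KRT19*, *DES*, *NES* and *LMNB1* were listed for neither line, nor were KRT8-201, KRT18-201, VIM-201 and LMNA-205.

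Both synemin transcripts were lower in both lines. For SYNM-202 the group means were 1596 (wild type), 577 (UBE2B-/-1) and 720 (UBE2B-/-2) estimated counts, with a residual SD of 0.32 over the 9 libraries. Its log2 changes were -1.47 (SE 0.26, q = 7.90e-06) and -1.15 (SE 0.26, q = 0.00111). SYNM-203 fell further, from 1210 to 279 and 220 (-2.12 and -2.46, SE 0.32, q = 4.52e-08 and 3.99e-11, residual SD 0.34). Summed, the 2 transcripts had 2806 estimated counts in wild type, 855 and 940 in the mutants and 205 in CPs. The mutant means lay between those of CPs and CMs, and both differed from wild-type CMs by more than the spread between replicates. The difference between SYNM-202 and SYNM-203 in a line was not tested.

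LMNB2-201 was higher in both lines. Its means were 1323 in wild-type CMs, 3081 in UBE2B-/-1 and 2696 in UBE2B-/-2, beside 3664 in wild-type CPs. The changes were 1.22 and 1.03 (SE 0.22, q = 1.70e-05 and 5.28e-04), with a residual SD of 0.28. *LMNB1*, the other B-type lamin, was listed for neither line. Of the 8 cycling-cell genes only *BIRC5* was listed, higher in both lines, from close to 0 to 45.0 and 25.7 estimated counts.

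The keratin changes in the mutants went both ways within *KRT8*. KRT8-211, the retained intron, ranked 2 of the 18 member transcripts with a level in wild-type CMs, at 5647 estimated counts per kb, and KRT8-201 has no CM value. It had means of 4348 (wild type), 306 (UBE2B-/-1) and 479 (UBE2B-/-2) estimated counts. That is 7.028% and 11.005% of wild type, with log2 changes of -3.83 and -3.18 (SE 0.61, q = 3.01e-07 and 4.35e-05). Its residual SD was 0.75, and 76.1% of the variance was technical. KRT8-216 was higher in UBE2B-/-2 by 1.55 (SE 0.50, q = 0.0457). It was not listed for UBE2B-/-1, where the variance columns and the wild-type mean of the CP to CM table give a change of 1.502. The means were 255 in wild type, 723 in UBE2B-/-1 and 747 in UBE2B-/-2. KRT18-206, also a retained intron, was higher in both lines, at 194 and 239 estimated counts against 86.5 (1.17 and 1.46, SE 0.38, q = 0.0481 and 0.00610). KRT8-216 and KRT18-206 overlap on opposite strands, as shown above. Whether shared reads link their changes was not tested. The summed level of *KRT8* in the mutants cannot be given, since KRT8-201 and KRT8-215 were not listed.

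The A-type lamins differed by transcript. LMNA-206 was higher in UBE2B-/-1 by 1.02 (SE 0.30, q = 0.0192). For UBE2B-/-2, where it was not listed, the variance columns allow a change of either 0.83 or 0.19. LMNA-202 was lower in UBE2B-/-2 by -1.13 (SE 0.29, q = 0.00545), at 285 against 624 estimated counts. For UBE2B-/-1 its solved mean was 574, a change of -0.12. The difference between the lines in LMNA-202 was 1.01 (SE 0.29). It did not pass after adjustment over 2959 transcripts (q = 0.141), and a transcript listed for 1 line only is one already picked for a difference. VIM-204, a short transcript annotated without its 3' end, had 1.89 estimated counts in wild type and 28.4 and 37.1 in the mutants (3.64 and 4.02, SE 1.09, q = 0.0247 and 0.00949, residual SD 1.33), far under VIM-201.

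For the 6 member transcripts listed for both lines, the difference between the lines was tested directly. None passed after adjustment over the 1992 transcripts listed for both (q = 1.00 for each), and none had an unadjusted p under 0.05. Listing for both lines already needed a change in each against the same wild-type libraries, which favors lines that agree. Of the 1992, only 29 had an unadjusted p under 0.05 in this test. It can therefore not show that the lines are alike. The differences ran from -0.65 (KRT8-211, 95% interval -1.85 to 0.56) to 0.34 (SYNM-203, -0.29 to 0.97), and each of the 6 intervals held 0. The interval for SYNM-202 was -0.84 to 0.19 and that for LMNB2-201 was -0.25 to 0.63, so differences up to these bounds remain possible. With a t distribution on 6 degrees of freedom, 0 member transcripts were called in either line (smallest adjusted values 0.421 and 0.399), and 0 of all transcripts, while 7 of 7 and 8 of 8 called members had an unadjusted p under 0.05.

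**Figure D4:**
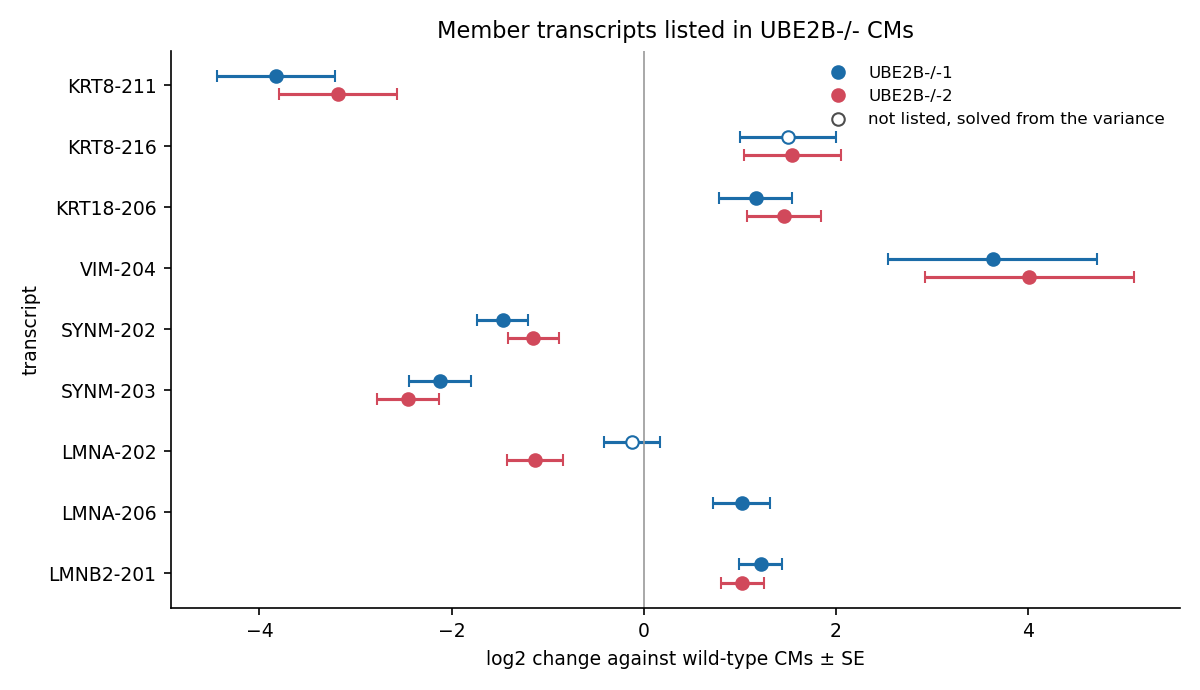
Log2 change against wild-type CMs (x axis) with its SE for each member transcript listed for UBE2B-/-1 (blue) or UBE2B-/-2 (red). Open symbols were not listed and were solved from the variance columns. Both lines lie on the same side of 0 in every transcript with 2 values. Of these, 6 were listed for both lines against the same wild-type libraries, which favors a shared side. The lines stand apart most in LMNA-202, which was listed for UBE2B-/-2 only. LMNA-206 has no single solution for UBE2B-/-2 and is shown for UBE2B-/-1 alone.

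**Figure D5:**
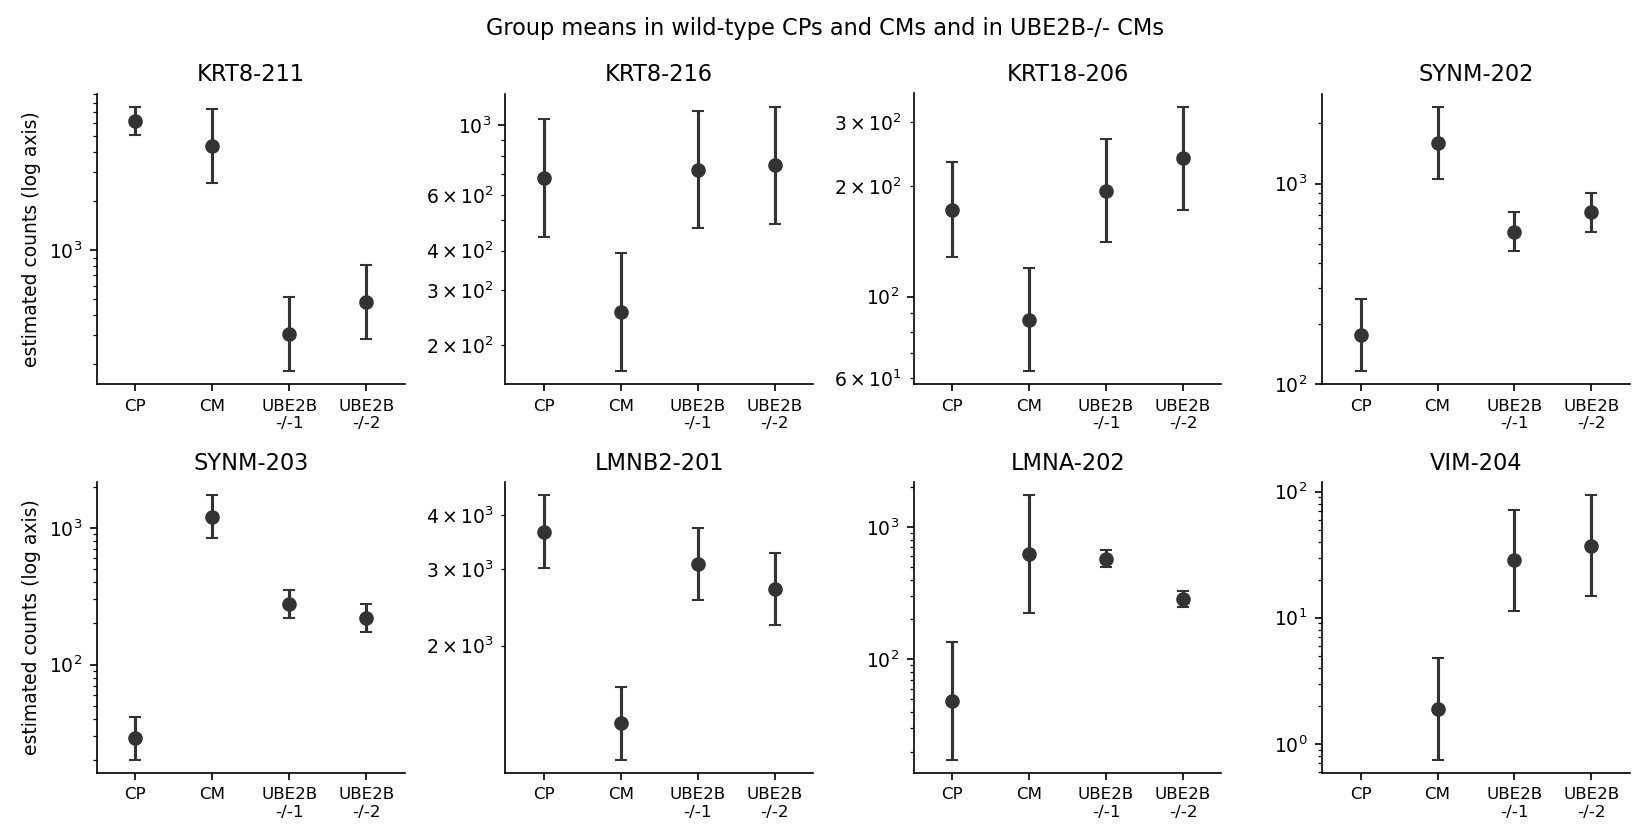
Group means in estimated counts (log axis) of 8 transcripts in wild-type CPs and CMs and in both UBE2B-/- lines, with 1 residual SD between 3 replicates. SYNM-202, SYNM-203, LMNB2-201 and LMNA-202 lie between the CP and CM means in both lines, KRT8-216 and KRT18-206 lie above both means, KRT8-211 lies below both, and VIM-204 has no CP value.

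The cell type markers shifted in the same libraries, and their part in these changes was not tested. Of the 12 cardiomyocyte genes, 8 were lower in UBE2B-/-1 and 10 in UBE2B-/-2, and none was higher. Over transcripts listed for both lines, their sum went from 425996 estimated counts in wild type to 77938 and 79856, with *TTN* the most abundant. *MYH7* and *TNNI3* were listed for neither line. Of the 11 fibroblast and mesenchymal genes, 5 and 7 were higher and none was lower, and their sum went from 10873 to 106269 and 261013, with *COL3A1* the most abundant and *POSTN*, *PDGFRB* and *THY1* listed for neither. Of the 15 epithelial and endodermal genes, *FOXA1* was higher in both lines, *SOX17* was higher in UBE2B-/-1 and *EPCAM* was lower in UBE2B-/-2. The 12 others were listed for neither. *TCF21* alone of the 10 epicardial genes was listed, and it was higher in both. Of 6 smooth muscle genes, *CNN1* and *LMOD1* were lower in both lines. *DCX* was higher in both lines, *TUBB3* in UBE2B-/-1 and *KDR* in UBE2B-/-2, and no pluripotency gene was listed.

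Other intermediate filament genes were mostly unlisted. Of 46 such genes fixed with the members, 13 were in any table. *KRT7*, a partner of KRT19 in simple epithelia, rose from 18.9 to 861 estimated counts between CMes and CP (5.47, SE 0.41, q = 9.35e-38). It rose further from CP to CM, on the scale of that table from 762 to 2354 (1.63, SE 0.50, q = 0.00936), where *KRT19* fell. At that step 6 of the 46 were called higher and 1 lower, and *KRT7* was the most abundant of those listed. *KRT6A*, a keratin of stratified epithelia, was listed at 0 in CPs and 519 in CMs (q = 1.95e-31), and *KRT10* rose from 120 to 261 (1.11, SE 0.24). The neurofilament gene *NEFL* rose from iPSC to M (1.29, SE 0.18), fell from M to CMes (-3.52, SE 0.27) and rose from CP to CM (2.78, SE 0.83). *INA*, *NEFH* and *NEFM* fell from M to CMes with it, *NEFM* fell again from CMes to CP, and *TCHP* rose from iPSC to M (2.28, SE 0.18). *KRT80* (from M to CMes) and *KRT79* (from CMes to CP) rose from under 1 to 23.8 and 14.6 estimated counts, *KRT79* fell again from CP to CM, and *KRT80* rose further there, from 35.5 to 367 for the same transcript (3.35, SE 1.20) and in 2 others. In both mutant lines 2 of the 46 were called, both higher. *KRT5*, the basal keratin of stratified epithelia, had 0.253 estimated counts in wild type and 48.4 and 25.3 in the mutants (q = 6.95e-06 and 2.57e-04), and *KRT13* was listed at 0 and had 23.5 and 16.2. These are low estimated counts, not corrected for length, beside those of the simple keratins.

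Of 20 linkers and chaperones of the cytoplasmic filaments, 12 were called higher and 1 lower from CP to CM by their most abundant called transcript, and 2 of them had calls both ways. *LDB3*, a Z-disc protein, rose from 348 to 29773 estimated counts (6.42, SE 0.27). *HSPB1*, a small heat-shock protein, rose from 998 to 13371 (3.74, SE 0.14). For *FLNC*, the muscle filamin, ENST00000346177.6 rose from 1713 to 23701 (3.79, SE 0.21). Another *FLNC* transcript, ENST00000325888.12, was not listed at that step. On the scale of the CMes to CP comparison it stood at 16789 estimated counts in CPs, against 1934 for ENST00000346177.6. The change of *FLNC* as a whole can therefore not be given. *PLEC*, the crosslinker plectin, went both ways, with ENST00000354958.6 lower (-1.50, SE 0.35) and ENST00000398774.6 higher, from near 0 to 638. At the earlier steps 3 were higher and 4 lower from iPSC to M, 6 higher and 2 lower from M to CMes, and 8 higher and 2 lower from CMes to CP, where *MACF1* and *NEBL* had calls both ways. The desmosomal genes *DSP* (2.00, SE 0.19, from iPSC to M) and *PKP2* (2.26, SE 0.12, from CMes to CP) were among the higher ones. So were ENST00000325888.12 of *FLNC* and *HSPB8* from M to CMes (3.25, SE 0.13, and 2.63, SE 0.27). *MACF1*, *DNAJB6* and *HSPB8* fell from iPSC to M, *DST* and *MTM1* from M to CMes, and *DNAJB6* from CMes to CP. *NEBL* and *DST* had risen from iPSC to M, *NEBL* also from M to CMes, and *DSP* and *LDB3* rose from CMes to CP. The lower *NEBL* call from CMes to CP was on ENST00000417816.2, which went from 1010 to 419 estimated counts. This transcript had been called higher from iPSC to M (1.00, SE 0.16). ENST00000377122.8, called higher at both of the first steps, was not listed from CMes to CP. The higher *NEBL* calls there were on ENST00000460652.1 and ENST00000493005.5, which reached 42.1 and 150 estimated counts in CPs. In the mutants none was higher, and 7 and 5 were lower. On the scale of the UBE2B-/- fit, *LDB3* was at 34357 estimated counts in wild type, 11999 in UBE2B-/-1 and 11145 in UBE2B-/-2, and *NEBL* at 38132, 10650 and 9263. Single transcripts of *FLNC* (ENST00000346177.6 in UBE2B-/-2) fell in both lines (-1.28 and -1.35, SE 0.32), as did those of *MACF1* (-2.42 and -1.27, SE 0.35). These values do not give the change of either gene as a whole.

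Of 27 partners and processing enzymes of the lamina, 10 were called higher and 4 lower from CP to CM, and 4 (*SUN1*, *SYNE1*, *SYNE2* and *TMEM201*) had calls both ways. *MLIP*, a lamin-binding protein of muscle, was listed at 0 in CPs and 1884 in CMs (q = 6.51e-85), and *LMO7*, a partner of emerin, rose from 190 to 3689 (4.27, SE 0.25). The nesprin gene *SYNE3* fell from 838 to 114 (-2.87, SE 0.19), *TMPO*, which encodes the LAP2 proteins, from 2647 to 1126 (-1.23, SE 0.16), and the nucleoporin gene *NUP153* from 2604 to 1410 (-0.88, SE 0.14). Earlier, 1 was higher from iPSC to M, 4 higher and 2 lower from M to CMes, and 3 higher and 2 lower from CMes to CP. *SYNE3* rose at both of the latter steps, *LEMD2* and *SUN2* rose from M to CMes, *SYNE1* and *SYNE2* rose from CMes to CP, and *CBX5* and *PLPP7* fell from CMes to CP. *LMO7* rose from iPSC to M and fell from M to CMes, where *SYNE2* fell too. *TMEM201* had one transcript higher from CP to CM (1.85, SE 0.22) and another lower (-1.80, SE 0.55), and *PLPP7* rose there. In each mutant line 2 were higher and 4 lower, and in UBE2B-/-2 1 of these genes had calls both ways. *SUN2*, which spans the inner nuclear membrane, rose from 397 estimated counts to 1426 and 1245 (1.84 and 1.65, SE 0.26), and *LMO7* fell from 4257 to 2206 and 2319 (-0.95 and -0.88, SE 0.19), on the scale of the UBE2B-/- fit. *MLIP* also fell in both (-1.68 and -1.75, SE 0.51). *SYNE1*, the nesprin that links nuclei to the cytoskeleton of muscle, fell from 1719 to 515 and 875 (-1.74 and -0.97, SE 0.28). *TPR* was higher and *CBX5* lower in UBE2B-/-1, and *LEMD2* was higher and *TOR1AIP1* lower in UBE2B-/-2.

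VIM-201, NES-201 and LMNB2-201 were listed in 4 tables, which allows their pattern to be compared with others. The measure was the Euclidean distance between log2 changes over those 4 comparisons. For VIM-201, over the 4 transitions and among 396 other transcripts listed in all of them, the nearest were *UBALD2* (distance 0.56) and 2 transcripts of *FSTL1* (0.59 and 0.60). For NES-201, over the same transitions, they were *EGLN3* (0.63), *CSPG4* (0.78) and *PLPP1* (0.82). For LMNB2-201, over the last 2 transitions and both mutant lines and among 401 transcripts, they were *SRSF9* (0.31), *H2AX* (0.35) and *SNRPB* (0.43). All were listed with a q-value of at most 0.05 in each comparison used, so only transcripts that moved there could be near.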

How the data were processed

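RNA was poly-A selected and sequenced from 21 libraries. The authors removed poor-quality reads (FASTX-Toolkit), assigned reads to hg38 transcripts with Kallisto (0.45.0) and applied Sleuth's Wald test (0.30.0). The authors deposited 6 result tables, with 0 columns of per-sample values. Per the file headers, a row holds the effect (natural log) with its standard error, the q-value and p-value, the mean log estimated count (pseudocount 0.5) and variance estimates, which the deposited tables give as scores on the squared natural log scale. All q-values are at most 0.05. The fold minimum stated in the methods is 1.5; the stricter limit used here is log2 of it, applied to the natural-log effect. Depth per library is unknown, so precision is the standard error of the fit.

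P-values and standard errors were recomputed and matched for every row with 3 libraries per group. Group means followed from the effect and the mean. Scales of neighboring tables differed by -0.0674, -0.00632, 0.121 and -0.143 (natural log, largest departure 0.000494), and removing this placed the means of the members, and of no other genes, on 1 scale. To test the difference between the UBE2B-/- lines, it was set against the standard error of either line (the wild-type term drops out), with two-sided normal p-values and Benjamini-Hochberg adjustment. Where only 1 line was listed, the missing value was worked out from the variance columns. Alternatives were other q-value and fold limits, a t distribution, the transcript's own variance and a minimum of 10 estimated counts. The solved differences and the restriction to protein-coding transcripts were added after seeing the data. Scripts were tested on simulated data.

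Groups came from the sample labels, and replicates were plates begun at different times. Each gene spoke through its transcript with the highest mean, and transcripts called against it were named. In the lists of related genes, up to 3 genes per direction and comparison were named by absolute z. The 3 nearest patterns were taken for these highest transcripts where listed in at least 4 tables. The members, lists and tests were chosen with earlier results of these data known. Annotation was GENCODE 44, matched by identifier without version for 94.4% of listed transcripts. Python 3.11.15, pandas 2.3.3 and SciPy 1.17.1 were used.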

Additional observations from a re-analysis of the deposited data

How the results depend on the processing

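The counts of called member transcripts depended most on the distribution of the test statistic. With the t distribution the count was 0 in each of the 6 comparisons, on 4 degrees of freedom at the transitions and on 6 for the lines, where 1, 12, 9, 16, 7 and 8 had been called. Of the 27 changes of speaking transcripts, 19 at the transitions and 4 in the lines lost their call in that way. This alternative ignores the variance shared between transcripts. From iPSC to M, the count was 2 with a limit of ln(1.5) on b and 2 with no limit, since VIM-201 then counts. From CMes to CP, 9 calls became 13 with the limit of ln(1.5), a 1.5-fold change, where KRT8-201 and LMNB2-201 count, and 14 with no limit. From M to CMes, 7 of 12 calls were left when only protein-coding transcripts were kept, an alternative added after seeing the data. The same restriction turned the split from CP to CM from 6 higher and 10 lower to 6 and 5. For UBE2B-/-1, 4 of 7 were left at a q-value limit of 0.01, 1 higher and 3 lower, where 4 and 3 had been called. Under the other alternatives each count stayed within 1.5 times its reported value. None of the alternatives alters the log2 change of a transcript, so they could not test its direction. At a q-value limit of 0.01, 1 of the 27 lost its call (KRT19-201 from CP to CM). The difference between the lines called 0 member transcripts in all 4 versions tried.

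Leaving out replicates could not be run on tables without values per library. No paired analysis was possible because the tables hold no values per library to which the replicate numbers could be attached. The technical share of the variance was over 50% in 10 of 59 rows, none of them of a speaking transcript, with a median of 1.52% for these and 26.7% for the rest.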
